A study of Mus musculus with 4 samples.

Results

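Alveolar type 2 (AT2) cells are the surfactant-making cells of the lung, and 10 genes of surfactant production were followed in lung RNA: Sftpa1, Sftpb, Sftpc, Sftpd, Abca3, Lamp3, Napsa, Lpcat1, Slc34a2 and Etv5. They were picked by symbol among the 23282 rows of each lung table, and 10 of 10 were found and passed the filter, a mean normalized read count of at least 4, as did 15164 rows in all. Treadmill exercise (E) was crossed with tumor (T) in CDF1 mice that the study describes as male, which gave 4 groups. Normal control, E(-)T(-), had neither, while normal exercise, E(+)T(-), was exercised without tumor. Cancer control, E(-)T(+), had the tumor at rest, and cancer exercise, E(+)T(+), had both. The mice with tumor had been injected in the tail vein with CT26, a murine colorectal carcinoma cell line, so that lungs of these groups could hold tumor cells. The study reports that the cancer spread through the body, lungs included, and that tumor growth was reduced in the exercised mice. How much tumor the sequenced lungs held was not stated. The labels give postnatal day 28 as the age. The study bought the mice at 4 weeks of age and took tissues at the end of the experiment. Day 28 is thus the age at purchase rather than at sampling. Every group had 1 library. The labels speak of 10 mice in a group, and whether a library held RNA of a single mouse or of several was not stated for lung. For calf muscle the study used a single typical mouse per group, and it calls its work on the lungs similar. No difference below therefore has a replicate check, no test between conditions could be made, and every interval covers counting error only.

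Pulmonary surfactant is a film of phospholipid and protein that lowers surface tension in the air spaces and keeps alveoli from collapsing. AT2 cells make its lipids and its proteins, store them in lamellar bodies, which are secretory organelles related to lysosomes, and release them onto the alveolar surface. Surfactant proteins B and C are small hydrophobic proteins that spread the lipid film, while surfactant proteins A and D are collectins that bind microbes and take part in innate defence. AT2 cells also serve as progenitors of the flat alveolar type 1 cells through which gas is exchanged.

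Genes of surfactant proteins are known targets of the transcription factor NKX2-1 and of forkhead (FOX) factors, so the sequences upstream of the members were read first. RefSeq promoter windows of GRCm38.p6, which run from 250 bases before to 50 bases after a gene's start, were matched for 7 of the 10 members (Sftpa1, Sftpb, Abca3, Lamp3, Lpcat1, Slc34a2 and Etv5) with 8 windows, as Etv5 has 2 starts. The windows of Sftpb and Sftpa1 are shown because they hold the letters CTCAAG, the core of sites that NKX2-1 is known to bind, and those of Lamp3 and Etv5 because these genes had the largest and the smallest difference in the tumor comparison below. Capitals mark every match to CTCAAG or to the forkhead letters TGTTTNC on either strand. Each sequence reads 5′ to 3′ along the strand of its gene.
Sftpb, chr6:72304360-72304659, plus strand: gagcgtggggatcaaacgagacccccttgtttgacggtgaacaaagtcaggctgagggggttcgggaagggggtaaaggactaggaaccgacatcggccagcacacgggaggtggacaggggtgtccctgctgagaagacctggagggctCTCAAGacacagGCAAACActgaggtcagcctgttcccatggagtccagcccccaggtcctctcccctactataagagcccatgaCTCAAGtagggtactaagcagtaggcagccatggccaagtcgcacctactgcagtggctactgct
Sftpa1, chr14:41131538-41131837, plus strand: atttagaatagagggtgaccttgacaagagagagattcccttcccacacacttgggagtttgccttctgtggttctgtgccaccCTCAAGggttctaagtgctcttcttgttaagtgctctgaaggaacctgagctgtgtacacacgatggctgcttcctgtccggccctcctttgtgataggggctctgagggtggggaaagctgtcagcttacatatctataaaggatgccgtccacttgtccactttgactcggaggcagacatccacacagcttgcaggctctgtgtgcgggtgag
Lamp3, chr16:19706316-19706615, minus strand: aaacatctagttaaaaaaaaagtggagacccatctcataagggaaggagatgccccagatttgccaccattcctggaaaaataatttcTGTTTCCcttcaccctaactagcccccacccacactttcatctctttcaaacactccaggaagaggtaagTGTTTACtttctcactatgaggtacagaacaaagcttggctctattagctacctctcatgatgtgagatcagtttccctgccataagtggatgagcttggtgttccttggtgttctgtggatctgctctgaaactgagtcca
Etv5, chr16:22439521-22439820, minus strand: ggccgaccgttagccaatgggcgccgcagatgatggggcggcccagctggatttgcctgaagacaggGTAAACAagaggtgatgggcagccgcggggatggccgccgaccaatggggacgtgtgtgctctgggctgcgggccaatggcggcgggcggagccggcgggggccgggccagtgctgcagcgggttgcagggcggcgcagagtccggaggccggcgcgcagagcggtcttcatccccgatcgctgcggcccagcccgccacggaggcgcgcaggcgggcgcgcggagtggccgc
Sftpb had CTCAAG from position -100 to -95 and again from -15 to -10 relative to its start, and between them a forkhead match from -88 to -82. Sftpa1 had CTCAAG from -166 to -161. Lamp3 had forkhead letters from -162 to -156 and from -92 to -86, and Etv5 from -183 to -177. CTCAAG was present in 2 of the 8 member windows and in 15.9% of the 32851 windows of this length in the RefSeq table, and TGTTTNC in 3 of 8 and in 20.5%. The ETS letters CCGGAA occurred in the window of Abca3 alone among the members (14.9% of all windows), and the C/EBP letters TTGCNNAA in that of Slc34a2 alone (10.8% of all windows). These are matches of short letter strings and describe the windows, not binding.

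In the tumor comparison without exercise, cancer control over normal control, all 10 genes were lower, by 1.60 (Etv5) to 4.38 (Lamp3) on the log2 scale of the deposited values, log2(normalized read count + 1). The median difference of the 10 was -2.49, beside -0.03 over all rows. A 2-fold or larger difference was taken as the limit, and 10 of 10 members were lower by that much, against 25.7% of all rows. In the exercised mice the same comparison, cancer exercise over normal exercise, gave a median of -0.42 for the members and 0.00 for all rows, and 1 of 10 members, Lamp3, was at least 2-fold lower, against 13.0% of all rows. When libraries were scaled by their totals this median was -0.84 and 3 of 10 were past the limit. Those comparisons have no library in common. The following paragraphs give the values of each gene in turn, as deposited and as reads recovered from the deposited values.

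**Figure D1:**
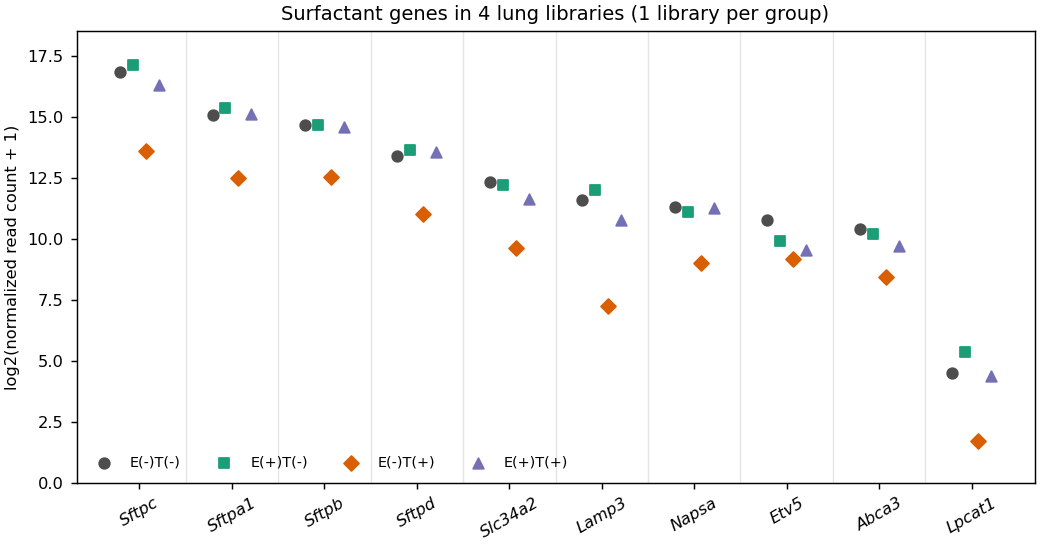
Deposited value of each surfactant gene, log2(normalized read count + 1), in each of the 4 lung libraries, 1 point per library. The point of the resting cancer group E(-)T(+) is the lowest of the 4 for each of the 10 genes, and for Etv5 (9.15) it lies close to that of E(+)T(+) (9.54).

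Of the hydrophobic proteins, Sftpc encodes surfactant protein C, the transcript most closely tied to AT2 cells. Its deposited log2 value was 16.84 in normal control, 17.11 in normal exercise, 13.59 in cancer control and 16.31 in cancer exercise, from 137668, 153667, 11268 and 69686 reads. By number of reads it stood at place 6 of all rows in both libraries without tumor, at place 86 in cancer control and at place 12 in cancer exercise. Cancer control was thus far below the rest. Sftpc was lower by 3.24 with tumor in resting mice (exact 95% interval of the read ratio -3.27 to -3.22), and higher by 2.72 in exercised than in resting mice with tumor (2.69 to 2.75). Its level in cancer exercise remained below both libraries without tumor, with a difference of -0.79 (-0.81 to -0.78) from normal exercise and of -0.52 from normal control, which became -1.21 and -1.02 when libraries were scaled by their totals.

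Sftpb encodes surfactant protein B, which is needed for lamellar bodies to form and is made in club cells of the airway as well as in AT2 cells. Its values were 14.65 in normal control, 14.66 in normal exercise, 12.54 in cancer control and 14.59 in cancer exercise, from 30358, 28259, 5423 and 21123 reads. The libraries without tumor did not differ beyond counting error (difference 0.01, interval -0.01 to 0.03, with a turned sign when libraries were scaled by their totals), and cancer exercise was 0.07 below normal exercise (-0.10 to -0.05). The tumor difference in resting mice was -2.12 (-2.16 to -2.08), the smallest among the 4 surfactant protein genes.

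Of the collectins, Sftpa1 encodes surfactant protein A. It had 15.07 in normal control, 15.34 in normal exercise, 12.49 in cancer control and 15.12 in cancer exercise, from 40561, 45150, 5242 and 30374 reads. Sftpd encodes surfactant protein D, which clears microbes and also takes part in the turnover of surfactant lipid. It had 13.40, 13.63, 11.01 and 13.56 in the same order, from 12701, 13790, 1882 and 10351 reads. Both collectin genes had the order normal exercise, cancer exercise, normal control, cancer control from highest to lowest, and for both the first 3 of these were within 0.27 of each other. Sftpa1 was lower by 2.59 with tumor at rest (-2.63 to -2.54) and Sftpd by 2.39 (-2.46 to -2.32). With tumor and exercise together Sftpa1 was 0.04 (0.02 to 0.06) and Sftpd 0.17 (0.13 to 0.20) above the normal control, and both differences turned negative when libraries were scaled by their totals, with or without the hemoglobin genes. The genes lie near each other on chromosome 14, at chr14:41131782-41136452 for Sftpa1 and chr14:41172214-41185149 for Sftpd (GRCm38, GENCODE M21), and Sftpc lies farther along it at chr14:70520949-70524081.

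The 4 surfactant protein genes did not differ by the same factor, so the makeup of their reads differed between libraries. Libraries were made with a kit that reads the 3' ends of transcripts, so a count carries little of a transcript's length. Sftpc held 62.2% of the reads of the 4 genes in normal control and 63.8% in normal exercise, but 47.3% in cancer control (95% Wilson interval 46.7 to 47.9) and 53.0% in cancer exercise. Sftpb took 13.7%, 11.7%, 22.8% and 16.1% in the same order of libraries. Reads of Sftpc per read of Sftpb were 4.54 in normal control, 5.44 in normal exercise, 2.08 in cancer control and 3.30 in cancer exercise, so this ratio was lowest in the library with the lowest level of both genes and did not reach the levels without tumor in cancer exercise. The share of the collectins Sftpa1 and Sftpd was higher in both libraries with tumor, at 22.0% and 23.1% for Sftpa1 against 18.3% and 18.7% without tumor, and at 7.90% and 7.87% for Sftpd against 5.74% and 5.73%. These shares rest on ratios within a library and do not depend on how libraries were scaled.

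**Figure D2:**
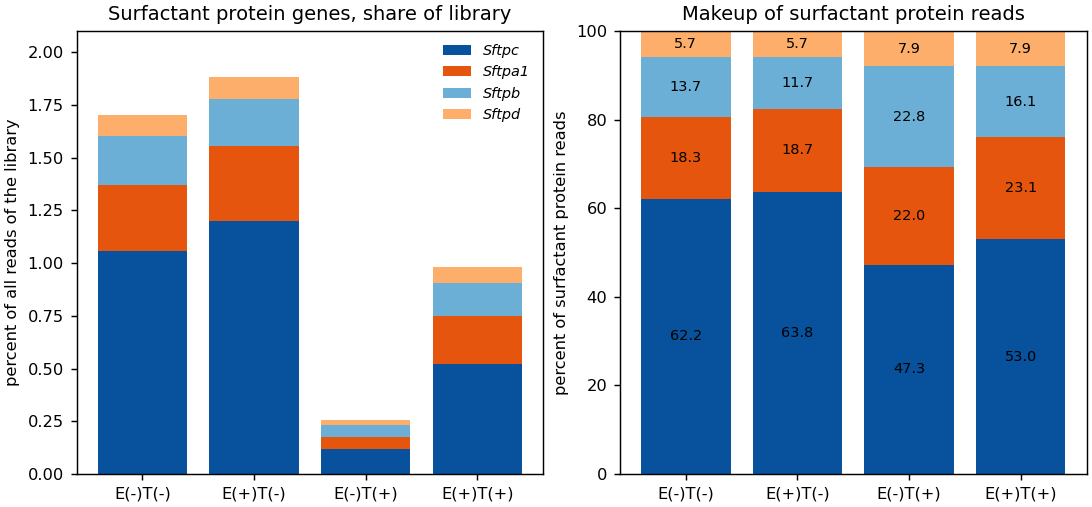
Left, reads of the 4 surfactant protein genes as a percentage of all reads of each library; right, the makeup of those reads in percent, 1 bar per library. The bar of E(-)T(+) on the left is far below the others, and on the right the part of Sftpc is 47.3% there against 62.2% in the normal control.

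All 10 members together held 1.83% of the reads in normal control, 2.0% in normal exercise, 0.278% in cancer control (0.274 to 0.281) and 1.04% in cancer exercise. Hemoglobin transcripts, which come from red blood cells, held a large and uneven part of the same libraries (14.33%, 14.17%, 1.43% and 31.43%), and leaving them out of the total raised the members' share in cancer exercise to 1.52%, beside 2.13% in the normal control. Hbb-b1 and Hbb-bs had similar reads (680673 and 689697 in cancer exercise), as did Hbb-b2 and Hbb-bt (237670 and 246393). The same reads may thus be counted under both symbols of a pair. Hemoglobin shares, and library totals with them, may then be too high. In whole tissue, fewer AT2 cells, less of these transcripts per AT2 cell and more RNA from other cells cannot be told apart.

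The members tied to lamellar bodies, Lamp3, Abca3 and Napsa, were lower in the resting cancer group as well, and Lamp3 by the most. Lamp3 encodes a lysosome-associated membrane protein found in lamellar bodies, and in the mouse it marks AT2 cells. It had 11.60 in normal control, 11.98 in normal exercise, 7.22 in cancer control and 10.74 in cancer exercise, from 3644, 4396, 135 and 1465 reads. The tumor difference was -4.38 at rest (-4.65 to -4.14), which left 4.78% of the level of the normal control, and -1.24 with exercise (-1.32 to -1.15). It was also the member with the largest difference between exercised and resting mice with tumor, 3.52 (3.28 to 3.80). LAMP3 is known as a marker of mature dendritic cells too, and the summed normalized count of 8 markers of that state was 852.9 in normal control, 1236.7 in normal exercise, 3024.4 in cancer control and 1284.7 in cancer exercise. In cancer control most of that sum was Fscn1, which also occurs in other cell types and had 309, 411, 2115 and 559 reads in the 4 libraries. The chemokine receptor Ccr7 and the chemokine Ccl17 were lowest in cancer control, as Lamp3 was, with 130, 110, 6 and 78 reads of Ccr7 and 78, 171, 11 and 55 of Ccl17, while Zbtb46 (0.95), Relb (0.87) and Cacnb3 (0.08) were not lower with tumor at rest. Of the 7 markers past the filter 3 were at least 2-fold lower with tumor at rest and 1 higher (25.7% and 20.6% of all rows), with a median of 0.08, and Ccl22 and Il4i1 had 0 reads in cancer control, as did Il4i1 in cancer exercise. The part of dendritic cells in the difference of Lamp3 was not tested.

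Abca3 encodes the transporter that loads phospholipid into lamellar bodies. Its values were 10.40 in normal control, 10.19 in normal exercise, 8.43 in cancer control and 9.70 in cancer exercise, from 1591, 1271, 313 and 708 reads. It was lower by 1.98 with tumor at rest (-2.16 to -1.80) and by 0.50 with exercise (-0.63 to -0.36), and its exercise difference with tumor, 1.27 (1.08 to 1.47), dropped to 0.66 and below the 2-fold limit when libraries were scaled by their totals. Exons of Abca3 overlap a transcript of the opposite strand, D330041H03Rik, and the reads of the pair cannot be told apart because the use of strand in counting was not stated.

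Napsa encodes napsin A, an aspartic protease that cleaves the precursors of surfactant proteins B and C. It had 11.31 in normal control, 11.08 in normal exercise, 9.0 in cancer control and 11.25 in cancer exercise, from 2987, 2354, 465 and 2077 reads. Napsa was the only member with a higher value in cancer exercise than in normal exercise, by 0.17 (0.08 to 0.25), which became -0.25 when libraries were scaled by their totals. In resting mice it was lower with tumor by 2.31 (-2.46 to -2.18). Reads of Lamp3 per read of Napsa were 1.22 in normal control, 1.87 in normal exercise, 0.290 in cancer control and 0.705 in cancer exercise, so that these lamellar body genes did not keep their proportion. Exons of Napsa overlap the antisense gene Gm15396, with the same limit as for Abca3.

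Slc34a2 encodes the sodium-phosphate cotransporter NaPi-IIb, which takes up phosphate from the alveolar fluid. Its values were 12.33 in normal control, 12.19 in normal exercise, 9.63 in cancer control and 11.64 in cancer exercise, from 6070, 5078, 722 and 2727 reads. It was lower by 2.70 with tumor at rest (-2.82 to -2.59) and by 0.55 with exercise (-0.62 to -0.48). Lpcat1 encodes a lysophosphatidylcholine acyltransferase that makes the saturated phosphatidylcholine of surfactant. It was close to the limit of detection, with 25, 43, 2 and 17 reads, and values of 4.47, 5.34, 1.71 and 4.38 in the same order of libraries. Its read ratio in the tumor comparison at rest was -3.28 on the log2 scale, with an interval from -6.40 to -1.27, so the size of its difference was poorly known.

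Etv5 encodes an ETS transcription factor downstream of fibroblast growth factor (FGF) signalling that is known to maintain the AT2 state. It had 10.74 in normal control, 9.89 in normal exercise, 9.15 in cancer control and 9.54 in cancer exercise, from 2018, 1032, 516 and 636 reads. Etv5 stood apart from the other members in the size of several differences. It was the lowest of the members in the comparison of exercised with resting mice without tumor, at -0.85 (-0.96 to -0.75), it had the smallest tumor difference at rest, -1.60 (-1.74 to -1.46), and it was the single member under the 2-fold limit for exercise with tumor, at 0.39 (0.23 to 0.57), which became -0.21 when libraries were scaled by their totals. With tumor and exercise together it was at 43.3% of the normal control, the lowest of the 10. Reads of Sftpc per read of Etv5 were 68.2 in normal control, 148.9 in normal exercise, 21.8 in cancer control and 109.6 in cancer exercise.

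**Figure D3:**
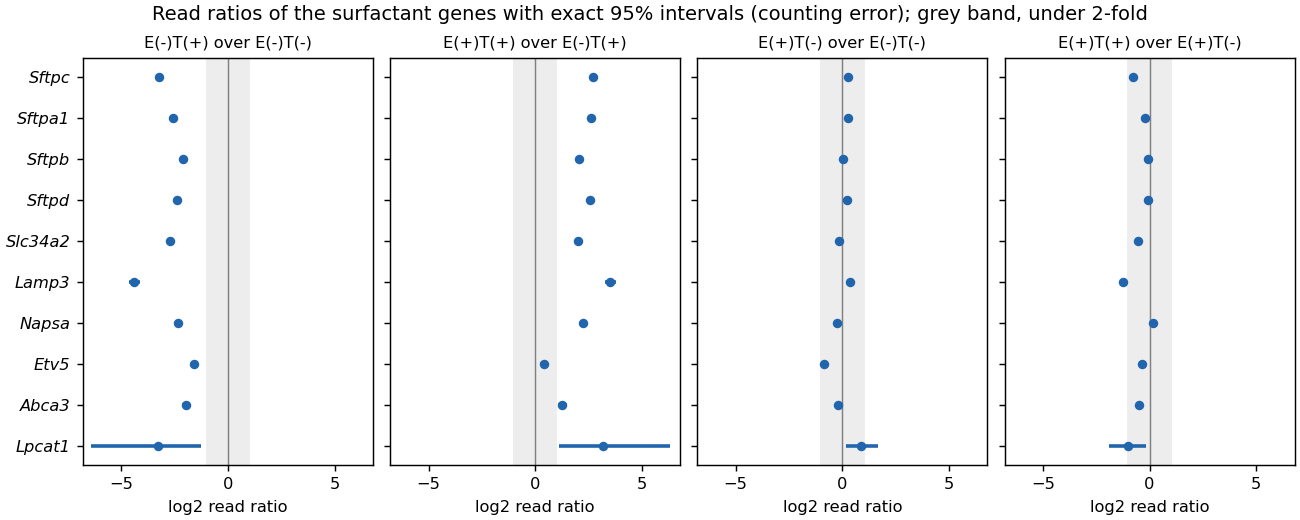
Log2 read ratio of each surfactant gene in 4 comparisons, scaled by the effective library sizes, with exact 95% intervals that cover counting error; the grey band marks differences under 2-fold. All points lie left of the band for tumor at rest, 9 of 10 lie right of it for exercise with tumor, and the bar of Lpcat1 is wide because E(-)T(+) had 2 reads of it.

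The question of how exercise bears on these genes was read in mice without and with tumor. Without tumor, normal exercise over normal control, the members ranged from -0.85 (Etv5) to 0.87 (Lpcat1, interval of the read ratio 0.15 to 1.67), with a median of 0.12 beside 0.00 over all rows. None of the 10 reached 2-fold in either direction, against 9.98% of all rows. Of the members 9 have a mean count of at least 100, and among the 9396 rows at that level 2.13% reached 2-fold. Of the surfactant protein genes, Sftpa1 (0.27, 0.25 to 0.29), Sftpc (0.27, 0.26 to 0.28) and Sftpd (0.23, 0.20 to 0.27) were slightly higher in the exercised library, as was Lamp3 at 0.38 (0.32 to 0.45). Abca3 (-0.21), Napsa (-0.23) and Slc34a2 (-0.14) were slightly lower. With tumor, cancer exercise over cancer control, all 10 were higher, with a median of 2.40 beside 0.01 over all rows. A 2-fold or larger difference was reached by 9 of 10, against 24.3% of all rows. When libraries were scaled by their totals the median was 1.79, 8 of 10 reached the limit, and Etv5 was lower.

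Because the tumor comparison at rest and the exercise comparison with tumor both use the cancer control library, a low value in it enters each of them, and they are not independent. Set against the normal control, the members stood at 4.78% (Lamp3) to 33.0% (Etv5) in cancer control, with a median of 17.9%, and at 43.3% (Etv5) to 112.1% (Sftpd) in cancer exercise, with a median of 81.7%. Sftpb (95.7%), Napsa (95.7%) and Sftpa1 (103.0%) were near the normal control in cancer exercise, and Sftpc (69.6%), Slc34a2 (61.8%), Abca3 (61.2%) and Lamp3 (55.3%) were below it. In the direct comparison of cancer exercise with normal control, 1 of 10 members, Etv5 at -1.21 (-1.34 to -1.08), was at least 2-fold lower, against 14.4% of all rows, and the members' median was -0.31 beside -0.02. This count depended on the scaling between libraries, and was 5 when libraries were scaled by their totals and 2 when hemoglobin genes were left out of the totals.

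Other markers of AT2 cells were examined next. Their list too was chosen with earlier results of these data known, so it is no independent check of the label. Markers of several other cell types, given below, were lower with tumor at rest as well. All 12 AT2 markers of the list were detected in each library, and their summed normalized count was 37265.3 in normal control, 54205.6 in normal exercise, 4875.6 in cancer control and 32399.4 in cancer exercise. Cxcl15 alone gave 23247 of their 43852 reads in normal control. In the tumor comparison at rest 12 of 12 were at least 2-fold lower, against 25.7% of all rows, with a median of -3.33 beside -2.49 for the surfactant genes. Hc, which encodes complement component C5, and Lgi3, a secreted leucine-rich repeat protein, differed by the most (-4.86 and -4.11), and Muc1, a membrane mucin, and Lyz1, a lysozyme, by the least (-2.13 and -2.51). With exercise the tumor difference had a median of -0.89 and 6 of 12 were at least 2-fold lower, against 13.0% of all rows.

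The transcription factors that are known to drive AT2 genes differed among themselves. Nkx2-1, the main regulator of lung epithelial identity, had 284 reads in normal control, 203 in normal exercise, 37 in cancer control and 44 in cancer exercise. It was lower by 2.54 with tumor at rest and by 1.83 with tumor in exercised mice, and its difference between exercised and resting mice with tumor was 0.34, whereas the surfactant genes had a median of 2.40 there. That 0.34 is smaller than the shift of -0.59 that scaling by library totals gave the median of all rows, so its sign is not settled. Foxa2, a forkhead factor, was lower by 3.14 at rest and by 1.27 with exercise. Of 10 such factors 7 were at least 2-fold lower with tumor at rest, with a median of -1.67, and Cebpd (1.61) and Klf5 (1.27) were at least 2-fold higher, against 25.7% of all rows lower and 20.6% higher. Nr3c1, the glucocorticoid receptor, was at -0.80. In exercised against resting mice with tumor the median of the 10 was 0.63, and 4 of 10 were at least 2-fold higher, against 24.3% of all rows.

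Around Etv5, 12 genes of FGF and ERK signalling were listed, and their median in the tumor comparison at rest was 0.91, with 6 at least 2-fold higher and 1 lower, against 20.6% and 25.7% of all rows. The lower one was Fgfr2, the FGF receptor of alveolar epithelium, at -3.10. The closest relatives of Etv5, Etv4 and Etv1, were higher in that comparison. Etv4 had 0 reads in normal control, 12 in normal exercise, 681 in cancer control and 87 in cancer exercise, and Etv1 had 108, 80, 472 and 76, a difference of 2.48 at rest. Feedback inhibitors of ERK signalling were mixed, with Spry4 at 2.52, Dusp4 at 2.49, Spred2 at 1.07, Dusp6 at 0.38, Spry2 at 0.17, Spred1 at 0.12 and Spry1 at -0.81.

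Relatives of the other members were compared in the same way, since they share a biochemical role but are not specific to AT2 cells. Lamp1 and Lamp2, general lysosomal membrane proteins, differed by -0.20 and -0.07 with tumor at rest, where Lamp3 differed by -4.38. Abca2 was at 0.00, Abca1, the cholesterol exporter, at -0.44 and Abca7 at -0.51, beside -1.98 for Abca3. Ctsd, the common lysosomal aspartic protease, was at -0.23 and Ctse at -0.78, beside -2.31 for Napsa. Lpcat3 was at -0.02, and Lpcat4, Slc34a1 and Slc34a3 had 0 reads in each library. Of the 19 relatives 13 passed the filter, with a median of -0.23. Of these 3 were at least 2-fold lower, near the 25.7% of all rows, among them the scavenger collectin Colec12 at -2.01 and Lpcat2 at -1.04, with Colec11 going from 9 reads to 0. The 2 at least 2-fold higher were Etv1 and Etv4, given above, against 20.6% of all rows.

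**Figure D4:**
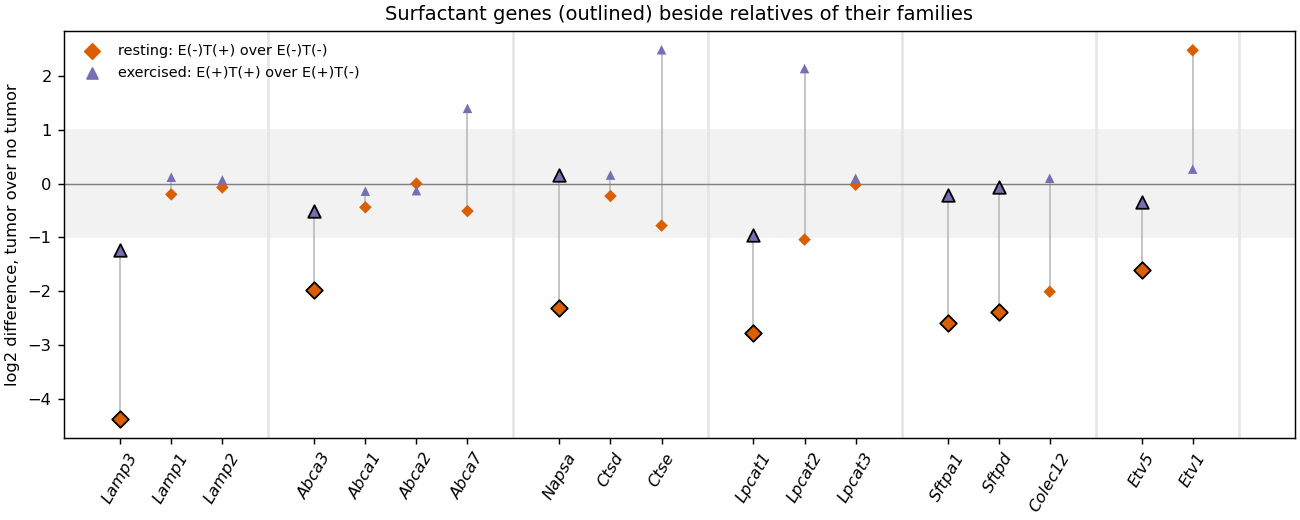
Log2 difference between tumor and no tumor in resting mice (diamonds) and exercised mice (triangles) for 6 families, with surfactant genes outlined in black; the grey band marks differences under 2-fold, and Etv4 and Colec11, with 0 reads in a library, are not drawn. The diamonds of Lamp1, Lamp2, Abca2, Ctsd and Lpcat3 lie between -0.23 and 0.00, above those of Lamp3, Abca3, Napsa and Lpcat1, and the diamond of Etv1 at 2.48 lies on the other side of zero from that of Etv5. Those of Abca1 (-0.44), Abca7 (-0.51), Ctse (-0.78), Lpcat2 (-1.04) and Colec12 (-2.01) lie lower than the flat relatives.

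Genes for the synthesis of surfactant lipid differed much less than the genes of its proteins. Of 20, 5 were at least 2-fold lower with tumor at rest and 1 was higher, with a median of -0.49, so that the share of lower genes was close to the 25.7% of all rows. The lower ones were Prdx6 (-2.12), an enzyme with phospholipase activity that takes part in surfactant turnover, Fabp5 (-1.88), a fatty acid binding protein, Cept1 (-1.83) and Chpt1 (-1.28), which complete phosphatidylcholine, and Scd1 (-1.07), a desaturase. The higher one was Srebf2 (1.20), a regulator of sterol synthesis. Chka and Lpin1 were at -0.07 and -0.10. Of 12 genes that build and move lamellar bodies 2 were at least 2-fold lower and 2 higher, with a median of -0.04, and neither count was above the shares of all rows (25.7% lower and 20.6% higher). The lower ones were the small GTPases Rab38 (-3.67), from 212 reads in normal control and 12 in cancer control, and Rab27a (-2.09), and the higher ones were Hps1 (1.11) and Dtnbp1 (1.0), parts of complexes that form lysosome-related organelles. Ap3d1 and Hps5, of such complexes too, were at -0.02 and -0.06.

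Clearance of surfactant, which alveolar macrophages and AT2 cells share, was read from 8 genes, of which 7 passed the filter. Adgrf5, a receptor that keeps the surfactant pool in check, was lower by 2.44 with tumor at rest and higher by 2.35 in exercised than in resting mice with tumor. Abcg1, a macrophage lipid exporter, and Pparg, the regulator of lipid handling in alveolar macrophages, did not show the second of these differences. Abcg1 had 1066 reads in normal control, 595 in normal exercise, 154 in cancer control and 167 in cancer exercise, and Pparg had 108, 75, 39 and 5. Of the 7, 3 were at least 2-fold lower with tumor at rest, against 25.7% of all rows. P2ry2 (1.82), with 67 reads in normal control and 186 in cancer control, was the 1 at least 2-fold higher, against 20.6%. The median of the 7 was -0.44 for tumor at rest and -0.14 for tumor with exercise. Csf2rb (0.30) and Abca1 (-0.44) differed least.

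Markers of several other lung cell types were also lower in cancer control, and those of some were not. In the counts of markers that follow, lower and higher mean by at least 2-fold with tumor at rest, which held for 25.7% and 20.6% of all rows. Of 10 alveolar type 1 markers 7 were at least 2-fold lower with tumor at rest (median -1.70) and 1, Akap5, was higher (2.55). Their summed normalized count was 71166.9 in normal control, 87489.5 in normal exercise, 42606.1 in cancer control and 50489.0 in cancer exercise, and Akap5 alone gave 23576 of their 38883 reads in cancer control. For exercise with tumor 6 of the 10 were at least 2-fold higher and Akap5 was lower (-2.53), against 24.3% of all rows, with a median of 1.27.

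Of 10 airway secretory markers 6 were lower and 2, Bpifa1 (4.15) and Scgb3a1 (2.51), higher (median -1.87), and their sum was 567773.1 in normal control, 662683.6 in normal exercise, 190383.3 in cancer control and 663828.5 in cancer exercise. All 10 ciliated cell markers were lower (median -1.82), with sums of 35904.9, 34305.3, 4444.2 and 21581.4 in the same order. Of 10 general epithelial markers 8 were lower and 1, Cldn4 (2.34), higher (median -1.45), with sums of 11689.6, 13817.9, 4191.8 and 18025.0. Scgb1a1 alone gave 504271 of the 668143 airway secretory reads in normal control. Sec14l3 gave 32831 of the 42251 ciliated reads there. The medians of these epithelial lists were nearer to 0 than that of the surfactant genes. For exercise with tumor the medians were 1.41 (airway secretory), 1.78 (ciliated) and 2.02 (general epithelial). At least 2-fold higher were 7, 8 and 10 of 10 in that order, against 24.3% of all rows. Of the airway secretory markers 2 were at least 2-fold lower there.

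Outside the epithelium, 10 of 10 endothelial markers were lower, with a median of -3.24 and summed counts of 30184.6 in normal control, 31725.0 in normal exercise, 4100.3 in cancer control and 30577.1 in cancer exercise. No marker of these 5 lists was at 0 reads in any library. Of 10 alveolar macrophage markers 7 were lower and 1 higher (median -3.72), with Fabp1 at 0 reads in cancer control. All 7 B cell markers past the filter were lower (median -5.47, or -4.59 with genes at 0 reads set to 3 reads). For exercise with tumor the medians were 2.96 (endothelial), 3.02 (alveolar macrophage) and 4.04 (B cell, or 2.90 with that setting). At least 2-fold higher were 10 of 10, 8 of 10 and 6 of 7, against 24.3% of all rows. The last 2 lists each had 1 marker at least 2-fold lower.

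Fibroblast markers were split, with 4 of 10 lower, 4 higher and a median of 0.52, and for exercise with tumor their median was -0.13. Neutrophil markers went the other way from the surfactant genes with tumor at rest, with 7 of 9 at least 2-fold higher, against 20.6% of all rows, and a median of 1.69. For exercise with tumor they went the same way as the surfactant genes. There 9 of 9 were at least 2-fold higher, against 24.3% of all rows, with a median of 4.18.

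Genes of cell division were higher with tumor at rest as well. Their summed normalized count was 375.3 in normal control, 744.3 in normal exercise, 11139.9 in cancer control and 3659.7 in cancer exercise, and 10 of 10 were at least 2-fold higher with tumor at rest, with a median of 4.91, which is also the median with Bub1, at 0 reads in normal control, set to its bound of 3 reads. The part that tissue makeup, dividing cells and blood had in the differences of the surfactant genes was not tested.

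**Figure D5:**
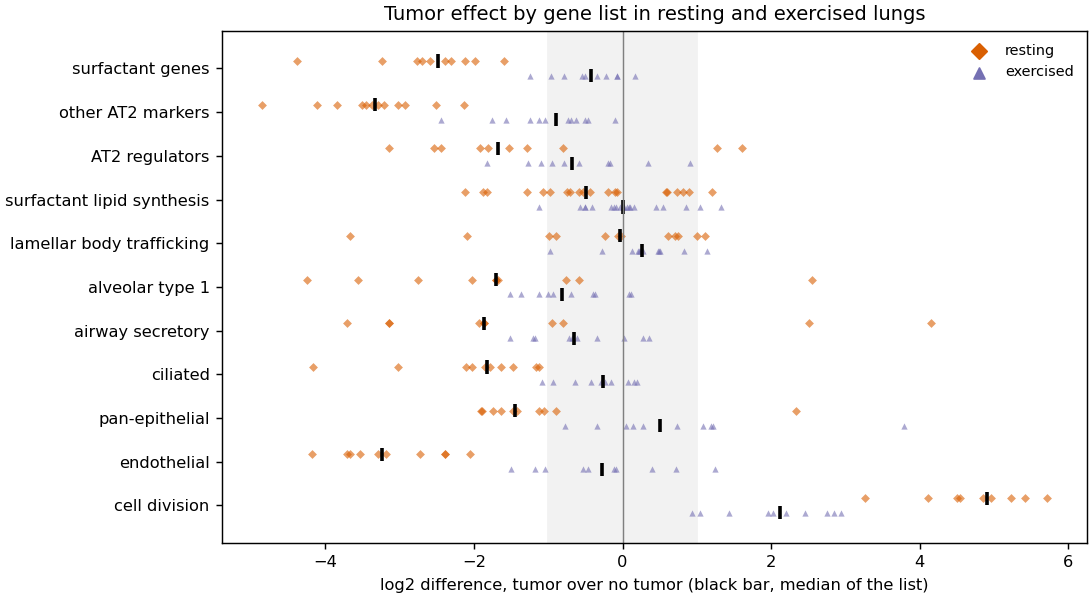
Log2 difference between tumor and no tumor for each gene of 11 lists past the filter, in resting mice (diamonds) and exercised mice (triangles), with black bars at the medians; the grey band marks differences under 2-fold, and genes at 0 reads in a library of the comparison are not drawn. The median of the surfactant genes is -2.49 at rest and -0.42 with exercise, that of endothelial markers -3.24 and -0.28, and that of cell division genes 4.91 and 2.12.

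The rows with the pattern most like the members' median were sought among rows with a mean normalized count of at least 50, by Euclidean distance over the 3 log2 differences from normal control in the 4 libraries. The nearest were Kcnj15 (distance 0.063), Shroom3 (0.102), Srgap1 (0.121), Arhgap31 (0.133), Liph (0.134), Nipal3 (0.164), Adrbk2 (0.164), Des (0.168), Gstm1 (0.192) and Dmd (0.204). Kcnj15, a potassium channel subunit, had differences from the normal control of 0.13 in normal exercise, -2.44 in cancer control and -0.35 in cancer exercise. The members lay farther from their own median than these rows, at 0.391 (Sftpa1) to 1.987 (Lamp3), with Etv5 at 1.595. Des and Dmd, genes of muscle, were among the nearest, so likeness over 4 libraries did not pick out a single cell type.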

How the data were processed

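Lung RNA of 4 groups was sequenced, with 1 library per group. The authors made 3' end libraries, aligned reads with Bowtie2 to mm10, counted them per gene with bedtools and normalized the counts in edgeR with its quantile method, by the labels and the study's methods. Versions, annotation and use of strand were not given in the sources used here. The deposited values are log2 of the normalized read count plus 1, made by the authors, at 3 decimals. The members and the gene lists were chosen with earlier results of these data known, and genes of other lists were named as those with the 2 largest and 2 smallest differences for tumor at rest. Genes beyond these were named after their values were seen: where 5 or fewer passed the limit, and the nearest relatives of members.

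Whole reads were recovered by inverting the negative binomial quantile adjustment (fitted dispersion 0.372), which returned 100% of values within 0.001. The inversion was tested on simulated data. Totals over all rows were 9354570 to 13368029 reads per library, with both rows of each hemoglobin pair in them, and 3 reads came to 0.224 to 0.321 CPM. Groups were compared by subtracting deposited log2 values, which understates changes of low genes. Read ratios carry exact (Clopper-Pearson) and shares Wilson intervals at 95%. Since reads carried no molecular identifiers and can be PCR copies, these cover counting error only. With 1 library per group no test was run. Other scalings, pseudocounts and filters were tried. Positions come from GENCODE M21 on GRCm38, the assembly of mm10. Computing used Python 3.11.15, NumPy 2.4.6, SciPy 1.17.1 and pandas 2.3.3.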

Additional observations from a re-analysis of the deposited data

Results flagged for a closer look

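For 4 genes the exercise difference had opposite signs in mice without and with tumor, each beyond counting error. Abca3 went from -0.21 to 1.27, a gap of 1.48 on the log2 scale. Napsa went from -0.23 to 2.25, a gap of 2.48. Slc34a2 went from -0.14 to 2.01, a gap of 2.15. Etv5 went from -0.85 to 0.39, a gap of 1.25, and the second of its values turned negative when libraries were scaled by their totals. For the tumor difference, Napsa had opposite signs in resting and exercised mice, -2.31 and 0.17, again a gap of 2.48, since both gaps are the same combination of the 4 libraries. The 0.17 became -0.25 when libraries were scaled by their totals, which ends the opposite signs. With 1 library per group none of these differences was tested.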

How the results depend on the processing

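No paired analysis was possible because every group had 1 library and the labels give no replicate numbers. For the same reason no library could be left out. Scaling by library totals gave member medians of 0.03 (exercise without tumor), 1.79 (exercise with tumor), -0.84 (tumor with exercise) and -0.79 (tumor and exercise over the normal control), while the median of all rows shifted to -0.08, -0.59, -0.41 and -0.52. Totals without the hemoglobin genes gave 0.03 for exercise without tumor and -2.58 for tumor at rest. Members at least 2-fold lower with tumor and exercise numbered 3 and 2 under these scalings against normal exercise, and 5 and 2 against normal control. The 10 of 10 lower for tumor at rest held under all 3 other scalings and both other pseudocounts. Shares of reads without the hemoglobin genes were 2.13% in normal control, 2.33% in normal exercise, 0.282% in cancer control and 1.52% in cancer exercise. Of all rows, 1513 were 2-fold apart for exercise without tumor, 2606 without the filter and 200 of 9396 at a mean count of at least 100. At that mean the other comparisons had 3601 (tumor at rest), 3171 (exercise with tumor), 1686 (tumor with exercise) and 1828 (both over the normal control). Of 250 values of single members under other settings, 173 stayed within counting error, 77 moved beyond it, and none past 2-fold changed sign. Depth limits Lpcat1 most, with 2 to 43 reads. The cause of these shifts was not tested.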
